A study of Mus musculus with 4 samples.

Results

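Apoe, Apoc1 and Apoc2 are 3 apolipoprotein genes of 1 cluster on mouse chromosome 7. They were chosen by name and are 3 of the 16798 genes in a single-cell RNA table of 15451 cells. The cells were CD45+ immune cells sorted from the cortex of 18-month-old mice. The first group, called ADAM in the labels, was APP/PS1 Axl-/- Mertk-/-, and the second, called AD, was APP/PS1, so that the amyloid-forming transgenes were present in every library and the groups differ in the receptor tyrosine kinases Axl and Mertk. Each group had 2 libraries, named ADAM 1, ADAM 2, AD 1 and AD 2 here, and each library pooled 2 cortices, so the spread between libraries is a spread between pools. No mice without APP/PS1 were analysed here, and the sources used here do not give the promoter of the transgenes or the extent of the deletions.

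Apolipoproteins coat lipid particles and steer them to receptors and enzymes. ApoE is the main lipid carrier made in the brain, by astrocytes and microglia, and binds receptors of the LDL receptor family as well as TREM2; mouse microglia near amyloid plaques are known to raise it. ApoC1 hinders the uptake of lipoproteins and the enzymes that act on them, while ApoC2 is the cofactor that lipoprotein lipase needs, and in macrophages the cluster is known to answer to the liver X receptors, which sense oxidised sterols.

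All 3 genes lie on the minus strand of chromosome 7 (GRCm38, the build that the submitters name mm10), and their positions come from GENCODE. Apoe spans chr7:19696109-19699188, Apoc1 chr7:19689481-19692660 and Apoc2 chr7:19671579-19677941. Between Apoc1 and Apoc2 lies a further apolipoprotein gene, Apoc4 (chr7:19678083-19681479), whose end is 141 bases from the start of Apoc2, and the 4 genes together span 27610 bases. Axl, 1 of the 2 genes deleted in ADAM mice, lies 6.06 Mb away from Apoe on the same chromosome, and Mertk is on chromosome 2. RefSeq promoters of GRCm38.p6, which run from 250 bases before a transcript start to 50 bases after it, were matched for 2 of the 3 members, with 3 windows for Apoe and 1 for Apoc2. All but the third Apoe window are shown because the RNAs of this 1 locus are compared with each other below: the window at the gene's outer start (Apoe a, minus strand, chr7:19699139-19699438), the window of a start inside the gene (Apoe b, minus strand, chr7:19698572-19698871) and the Apoc2 window (minus strand, chr7:19677892-19678191). Capitals mark matches, on either strand, to TATAAA (the TATA box), GGGCGG (the GC box), AGGTCA (a nuclear receptor half-site) or AGGAAG (the core bound by ETS factors such as PU.1).
Apoe a: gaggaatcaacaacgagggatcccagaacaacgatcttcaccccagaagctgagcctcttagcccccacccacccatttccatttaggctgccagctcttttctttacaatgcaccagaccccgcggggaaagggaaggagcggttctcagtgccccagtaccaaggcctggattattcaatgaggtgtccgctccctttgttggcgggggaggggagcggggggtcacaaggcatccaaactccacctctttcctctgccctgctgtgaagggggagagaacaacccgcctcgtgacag
Apoe b: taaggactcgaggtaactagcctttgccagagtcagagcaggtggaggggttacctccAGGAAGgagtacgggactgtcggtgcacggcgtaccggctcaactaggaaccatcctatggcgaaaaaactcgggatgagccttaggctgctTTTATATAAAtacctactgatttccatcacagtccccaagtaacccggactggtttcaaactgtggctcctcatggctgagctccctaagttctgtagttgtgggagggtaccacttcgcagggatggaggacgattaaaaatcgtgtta
Apoc2: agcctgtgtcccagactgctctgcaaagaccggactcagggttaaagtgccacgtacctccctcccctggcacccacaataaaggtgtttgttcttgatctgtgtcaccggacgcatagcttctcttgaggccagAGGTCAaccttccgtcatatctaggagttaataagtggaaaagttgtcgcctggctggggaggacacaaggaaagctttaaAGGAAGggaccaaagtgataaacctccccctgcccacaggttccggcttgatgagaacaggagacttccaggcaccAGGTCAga
The window at the outer start of Apoe held none of these 4 motifs, nor did the window not shown, of a second start inside the gene (minus strand, chr7:19698349-19698648). The inner window that is shown held TATAAA on both strands in 1 overlapping run, the nearer 96 bases before that start, and AGGAAG 192 bases before it. The Apoc2 window held AGGTCA 115 bases before its start and again after it, and AGGAAG 34 bases before it. Among 32851 RefSeq promoter windows of the same length, 13.6% held TATAAA, 35.7% GGGCGG, 16.3% AGGTCA and 35.4% AGGAAG.

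The libraries held 3578 and 4089 cells with 23190134 and 26212313 UMIs in ADAM 1 and ADAM 2, and 3241 and 4543 cells with 14963857 and 29831947 UMIs in AD 1 and AD 2. A UMI is 1 counted RNA molecule, and since these are read from transcript ends they do not scale with gene length. The authors' classes and numbered microglia states were used as deposited, and each of the 9 classes held every marker of its own list in at least 1 library. The macrophage class also held 17460 to 28380 CPM of a list of 12 microglia markers in ADAM and 21960 to 29690 in AD, more than the 2541 to 4068 and 2900 to 3935 CPM of its own 8. CPM is a gene's UMIs divided by all UMIs of the same set of cells and multiplied by 1000000. ADAM 2 stood apart: its state 0 microglia held 680.7 CPM of 8 neutrophil markers, against 13.3 in ADAM 1, 8.58 in AD 1 and 26.4 in AD 2, and haemoglobin and red cell genes made up 170200 CPM of its state 2. In AD 1, 5 choroid plexus markers made up 61830 CPM of state 2. Results that rest on 1 of these libraries are given without it as well, and the part of such foreign RNA in them was not tested. Of the cell barcodes, 24 occurred in more than 1 library.

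Apoe was the most abundant transcript of microglia in states 4, 5 and 6. By mean CPM over the 4 libraries it ranked 1 among 16798 genes in states 4, 5 and 6, 2 in macrophages, 3 in all microglia with a state, 17 in state 0 and 252 in T and NK cells. State 5 was 17.6% of the cells and held 57.5% of the 1309017 Apoe UMIs, while state 0 was 31.3% of the cells and held 11.2% of them. Within microglia, state 5 held 71.6% of Apoe UMIs in ADAM 1 and 71.0% in ADAM 2, against 81.1% in AD 1 and 71.4% in AD 2, although its share of the cells ran over a wider range, 27.2% and 37.4% in ADAM and 37.1% and 23.3% in AD.

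In state 5, Apoe stood at 28720 and 38460 CPM in ADAM 1 and ADAM 2 and at 36890 and 41630 CPM in AD 1 and AD 2. State 4, the smallest tested state with 23 to 62 cells per library, had 25300 and 39800 CPM in ADAM and 45820 and 52770 CPM in AD. State 2 had 13490 and 19610 CPM in ADAM against 31920 and 25880 in AD. Thus in state 5 the groups overlapped, while in states 4 and 2 both ADAM libraries lay below both AD libraries. State 6, with 9 to 47 cells per library and not tested, lay the same way at 14920 and 20740 CPM in ADAM and 24950 and 35040 in AD. State 3 had 6889 and 20440 CPM in ADAM and 10140 and 19520 in AD, so its groups overlapped. State 0 had 3537 and 9100 CPM in ADAM against 3278 and 3874 in AD, so the groups overlapped, with ADAM 2 far above the other libraries. State 1 had 7570 and 11200 CPM in ADAM against 7043 and 4242 in AD, with both ADAM libraries higher.

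Outside microglia, macrophages were the class with high Apoe, at 23920 and 16900 CPM in ADAM and 19130 and 23450 in AD. Monocytes had 1578 and 1948 CPM in ADAM and 764.7 and 2060 in AD, and proliferating cells 2175 and 1125 CPM in ADAM and 1236 and 962.5 in AD. The monocyte class also held 4190 and 71100 CPM of neutrophil markers in ADAM and 142.6 and 2056 CPM in AD, beside 5505 and 10770 CPM of its own 6 markers in ADAM and 13010 and 11630 CPM in AD. Neutrophil markers in proliferating cells were at 112.4 and 18520 CPM in ADAM and 3.43 and 176.5 CPM in AD. The mix of cells in this class differed between the groups in other markers too. T and NK cell markers were at 1238 and 997 CPM in ADAM and 5924 and 3022 CPM in AD. B cell markers were at 12.8 and 13.8 CPM in ADAM and 518.3 and 1253 CPM in AD. Microglia markers were at 16470 and 4189 CPM in ADAM and 14280 and 15340 CPM in AD. The part of such RNA and of the mix of cells in the apolipoprotein levels and folds of both classes was not tested. T and NK cells, lymphocytes that should make little ApoE, had 490.1 and 524.1 CPM in ADAM and 263.9 and 351.1 in AD, the lowest mean of the tested sets. Neutrophils had 4230 and 3316 CPM in ADAM and 2017 and 3191 in AD, on as few as 11 cells in ADAM 1. In B cells of ADAM 2 the level was 7796 CPM, but 318 of the UMIs came from 1 cell, and the other libraries had 1551 in ADAM 1 and 305.9 and 1058 in AD. Endothelial cells and oligodendrocytes, with 3 to 21 cells per library, ranged over 837.3 to 3793 CPM in ADAM and 470.7 to 3489 CPM in AD. Over the 9 sets with at least 20 cells in every library the means ran from state 4 (40930 ± 11690 CPM, SD, n = 4 libraries) over state 5 (36420 ± 5501), state 2 (22730 ± 7947), macrophages (20850 ± 3405), state 3 (14250 ± 6761), state 0 (4947 ± 2779), monocytes (1588 ± 585.9) and proliferating cells (1374 ± 545.4) to T and NK cells (407.3 ± 121.4). Among neighbours in that order, the libraries separated without overlap between state 0 and monocytes and between proliferating cells and T and NK cells. All other neighbours overlapped. This order is a description, since the authors drew the states and classes from the same cells.

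**Figure D1:**
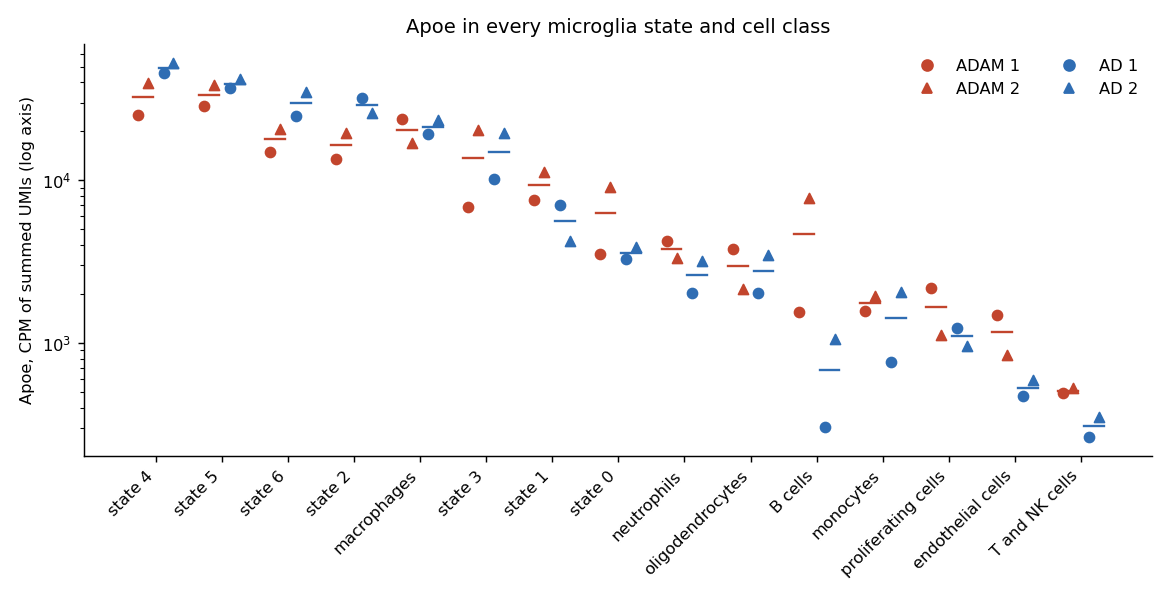
Apoe in CPM (log axis) for each microglia state and cell class, 1 point per library with ADAM left of AD and a line at each group's mean (n = 2). ADAM points lie below AD points in states 4, 6 and 2, at 25300 and 39800 against 45820 and 52770 CPM in state 4, and above them in state 1, T and NK cells, neutrophils, B cells and endothelial cells.

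Per cell, the contrast between states was also wide. To compare cells at equal depth, each was thinned to 1000 UMIs at random and shallower cells were left out, at most 17 per library in the states and classes given here. The median state 5 cell then kept 24 and 34 Apoe UMIs in ADAM 1 and ADAM 2, and 34 and 38 in AD 1 and AD 2. The median state 0 cell kept 1 and 3 in ADAM and 1 in each AD library. In ADAM 2 the upper quartile of state 0 cells was 11 Apoe UMIs, against 3 in ADAM 1, 2 in AD 1 and 3 in AD 2, so its high level in state 0 was spread over many cells. At least 1 Apoe UMI was found in 93.5% and 95.7% of state 0 cells of ADAM and 80.6% and 91.7% of AD, at median depths of 5604.5 and 5699.5 against 4145 and 5904.5 UMIs, and thinned cells gave 65.2% and 77.6% against 50.3% and 59.1%. In T and NK cells, taken as the set that should lack the gene, the shares were 69.6% and 74.1% in ADAM and 43.2% and 66.9% in AD, at median depths of 3406 and 3416 against 2925.5 and 3547.5. Thinned, they were 33.6% and 34.7% in ADAM and 20.7% and 29.0% in AD. State 0 thus lay above T and NK cells in every library, and state 5 cells held Apoe in at least 98.7% of thinned cells of each library.

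**Figure D2:**
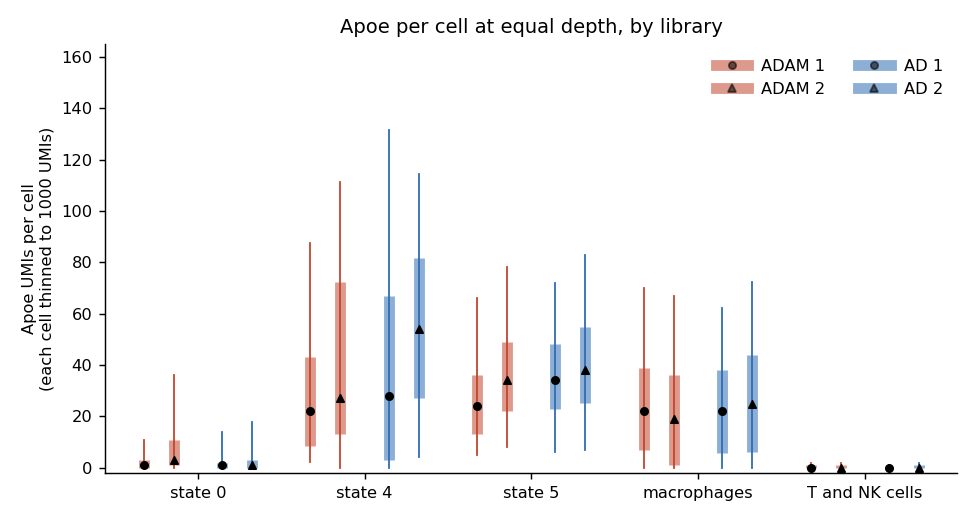
Apoe UMIs per cell after each cell was thinned to 1000 UMIs, by library, with ADAM left of AD; points are medians, thick bars run between the quartiles and thin lines the 5th to 95th percentile. Medians in state 5 were 24 and 34 in ADAM and 34 and 38 in AD, and state 0 of ADAM 2 reached higher than the other state 0 libraries.

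Next, each set was compared between the genotypes with edgeR's quasi-likelihood test on summed UMIs, with p-values adjusted over all genes of the set and a call at an adjusted p under 0.05. Over all microglia the Apoe level was nearly equal, at 12760 and 23270 CPM in ADAM and 20980 and 16600 in AD, a log2 fold (ADAM over AD, after TMM scaling of the libraries) of 0.0017 with a standard error (SE) of 0.35. Both ADAM libraries lay outside the range of the AD libraries, 1 on each side, so the spread between pools was wide. Across the 10 sets tested, edgeR called Apoe in 0, with 2 at an unadjusted p under 0.05 (state 4 and T and NK cells). DESeq2 called it in 1, T and NK cells, and limma-voom in 0. The share of all genes that edgeR called was 0.0419% in all microglia, 0.101% in state 0, 0.0635% in state 2, 0.313% in state 3, 0.127% in state 4 and 0.153% in state 5. In the other classes it was 0.241% in T and NK cells, 0.155% in monocytes, 0.0154% in macrophages and 0.0842% in proliferating cells. In state 5 the log2 fold of Apoe was −0.23 (SE 0.15, edgeR adjusted p = 0.994). In state 4 it was −0.63 (SE 0.22, edgeR adjusted p = 1.0), and in state 2 −0.68 (SE 0.39). The state 4 fold was −0.98 without ADAM 2 and −0.77 without AD 1. Such fits leave 1 library in a group, whose spread cannot be seen, and a call gained in them is not read as support.

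State 0 went the other way at 0.91 on the log2 scale (edgeR adjusted p = 0.998, SE 0.60), and this value rested on ADAM 2. Without ADAM 2 the fold was 0.045 and without ADAM 1 it was 1.44. The foreign RNA of that library is given above: its state 0 held 680.7 CPM of neutrophil markers and 21.1 CPM of red cell genes beside 9100 CPM of Apoe. The part of this RNA in the Apoe value was not tested. Markers of astrocytes, which make ApoE, summed to 190.7 and 203.6 CPM in state 0 of ADAM and to 164 and 191.5 CPM in AD (all 8 found). Log2 folds in the other sets were −0.10 (SE 0.86) in state 3, −0.046 (SE 0.25) in macrophages, 0.38 (SE 0.50) in monocytes and 0.72 (SE 0.41) in proliferating cells. In proliferating cells the fold was 1.12 without ADAM 2.

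**Figure D3:**
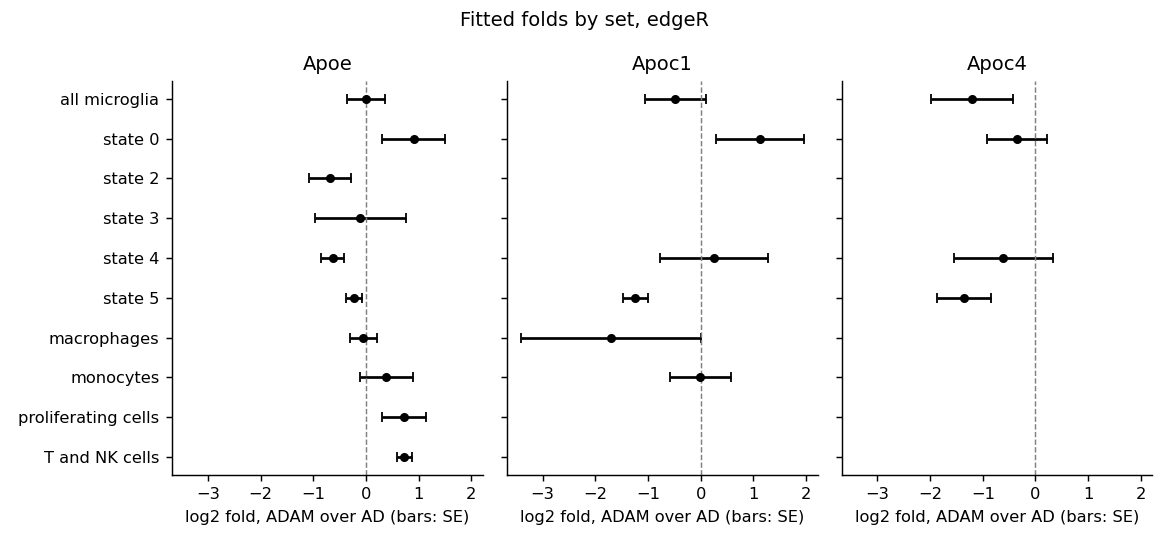
Log2 folds of ADAM over AD fitted by edgeR, with bars of 1 SE, for Apoe, Apoc1 and Apoc4 in the sets where each passed the filter on low counts. Apoe lies at 0.0017 in all microglia, at 0.91 in state 0 and at −0.63 in state 4; Apoc1 lies at −1.24 in state 5.

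Since the Apoe fold was positive in state 0 and negative in states 2, 4 and 5, the difference between these folds was tested itself, with library as a term. State 4 held 7.15 and 4.37 times the Apoe CPM of state 0 in ADAM 1 and ADAM 2, against 14.0 and 13.6 times in AD 1 and AD 2. State 5 held 8.12 and 4.23 times in ADAM against 11.2 and 10.7 times in AD. The step up from state 0 was thus smaller in both ADAM libraries than in both AD libraries. On the log2 scale the fold in state 4 was 1.40 below the fold in state 0 (−1.40, SE 0.20, edgeR adjusted p = 2.9e-09; 0.219% of genes were called in that comparison), and the fold in state 5 was below it as well (−1.0, SE 0.21, edgeR adjusted p = 0.0031; 1.02% of genes called). In state 2 the same difference was −1.34 (SE 0.34, edgeR adjusted p = 0.113; 0.066% of genes called), with 3.81 and 2.16 times the state 0 level in ADAM against 9.74 and 6.68 times in AD. In state 3 it was −0.92 (SE 0.43, edgeR adjusted p = 0.997, with 0.154% of genes called). More genes were called lower than higher in these comparisons, 84 against 29 for state 5 and 18 against 4 for state 4. Negative differences were thus not particular to Apoe, while the median over all genes was −0.0087 for state 5 and −0.024 for state 4.

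These differences rest in part on single libraries. Without ADAM 2 the state 5 difference was −0.51 (adjusted p = 0.70) and was not called, and the state 4 difference was −0.99 and still called. The state 4 difference lost its call without AD 1 (−1.46, adjusted p = 0.27) and without AD 2 (−1.36, adjusted p = 0.26). Over the alternatives the edgeR adjusted p of the state 5 difference ran from 7.6e-05 to 0.70, and that of the state 4 difference from 7.0e-68 to 0.27. The state 2 difference was −1.60 without ADAM 1, and the state 3 difference was −1.34 without AD 1 and −0.46 without AD 2. Each fit of all 4 libraries has 2 residual degrees of freedom, so these p-values lean on the spread that edgeR shares across genes. With 2 libraries a group there are 6 ways to split the 4, so the smallest two-sided p of an exact permutation test is 0.333. Moreover, the states were drawn by the authors from the same cells, and no source used here says whether Apoe was among the genes used.

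**Figure D4:**
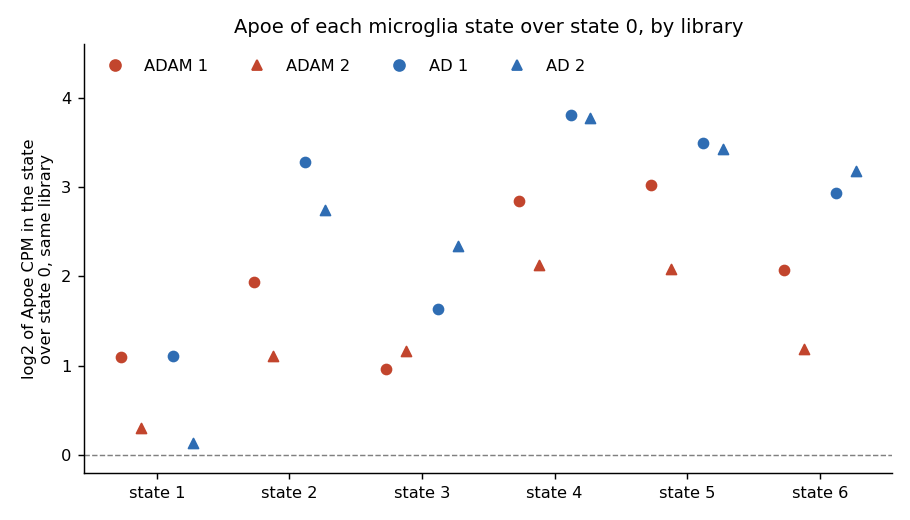
The log2 ratio of Apoe CPM in each microglia state to state 0 of the same library, with ADAM left of AD. In state 4 the ADAM libraries stand at 2.84 and 2.13 and the AD libraries at 3.81 and 3.77, and in state 5 at 3.02 and 2.08 against 3.49 and 3.43; in state 1 the groups overlap.

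Among non-microglial sets, Apoe came closest to a call in T and NK cells, where the log2 fold was 0.73 (edgeR adjusted p = 0.065, SE 0.15). Both ADAM libraries lay above both AD libraries. The call was gained with DESeq2, and leaving out a library moved the fold over 0.53 to 0.96. Markers of microglia were higher in ADAM in these cells as well: the summed level of the 12 markers, all of them detected, was 1600 and 1229 CPM in ADAM against 797.9 and 843.1 CPM in AD, and that of 6 monocyte markers 708.7 and 736.7 CPM in ADAM against 552.2 and 440.4 CPM in AD. The part of this RNA in the Apoe value was not tested. Per microglia marker UMI, T and NK cells held 0.306 and 0.426 Apoe UMIs in ADAM and 0.331 and 0.416 in AD, so this ratio overlapped between the groups. Over all cells of each library the ratio was 0.311 and 0.594 in ADAM and 0.473 and 0.386 in AD. Tyrobp, the adaptor of TREM2, rose in the same set to 290.4 and 333.8 CPM in ADAM, against 161.9 and 180 CPM in AD, a log2 fold of 0.88 with an SE of 0.13 (edgeR adjusted p = 0.011). Trem2 itself rose to 135.1 and 114.8 CPM in ADAM, against 64.3 and 76.4 CPM in AD (0.84, SE 0.14, edgeR adjusted p = 0.025). The part of microglial RNA, and of the mix of T and NK cells in the set, in the Tyrobp and Trem2 values was not tested either. Without AD 1 neither was called (edgeR adjusted p = 0.227 for Tyrobp and 0.438 for Trem2), nor without AD 2 (0.0635 and 0.0831), and Trem2 was not called without ADAM 1 (0.0985). Over the alternatives these p ran from 1.4e-07 to 0.227 for Tyrobp and from 5.1e-06 to 0.438 for Trem2. The T or NK cell with most Apoe held 142 UMIs, 11.4% of those of ADAM 1. Fewer cells with the RNA and less RNA per cell cannot be told apart in such sums.

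Apoc1 was rare. Its 733 UMIs came from 419 of the 15451 cells, and its order over the sets was another than that of Apoe. By mean CPM the order ran from state 4 (61.5 ± 43.3, SD, n = 4 libraries) over macrophages (47.7 ± 66.4), monocytes (19.4 ± 7.45), state 5 (10.8 ± 5.34), state 3 (10.3 ± 7.22), proliferating cells (7.98 ± 9.58), state 2 (3.75 ± 4.54) and state 0 (1.85 ± 1.85) to T and NK cells (0.52 ± 0.20), and every pair of neighbours overlapped. Monocytes thus had more Apoc1 than state 5 microglia by mean, while they had far less Apoe. The level in monocytes was 9.61 and 26.5 CPM in ADAM and 17.8 and 23.7 CPM in AD, so the range of monocytes overlapped that of state 5.

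Single cells carried much of the Apoc1 in macrophages, state 4 and proliferating cells. Of the 132 macrophage UMIs, 87 came from 1 cell of AD 2. The macrophage level was 36.6 and 9.55 CPM in ADAM against 0 and 144.6 CPM in AD, where the count of 0 in AD 1 allows up to 3 UMIs, or 9.80 CPM. Without the cell of each library with most Apoc1, macrophages stood at 9.22 and 3.86 CPM in ADAM and 0 and 12.3 CPM in AD. In state 4 of ADAM 2, 20 of 22 UMIs came from 1 cell, and the state 4 levels were 23.0 and 107.9 CPM in ADAM and 88.9 and 26.2 CPM in AD. In state 5 no cell held more than 9.57% of a library's Apoc1 UMIs.

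In state 5 both ADAM libraries were lower in Apoc1, at 4.71 and 8.06 CPM (22 and 45 UMIs) against 15.4 and 15.2 CPM in AD (61 and 94 UMIs). The log2 fold was −1.24 (SE 0.24), and its edgeR adjusted p of 0.067 missed the threshold. Leaving out any 1 library gave folds of −1.70 to −0.93, and over all alternatives the highest adjusted p was 0.339. In state 0 the levels were 0.847 and 4.57 CPM in ADAM (7 and 26 UMIs) and 0.536 and 1.45 CPM in AD (2 and 20 UMIs), with ADAM 2 highest, and the log2 fold was 1.12 (SE 0.83). The fold in state 5 minus that in state 0 was −2.38 (SE 0.48, edgeR adjusted p = 4.9e-04). Without ADAM 2 it was −1.22 (adjusted p = 0.77) and was not called, and over the alternatives the adjusted p ran from 8.1e-06 to 0.77. The same difference for state 4 was −0.62 (SE 0.81, edgeR adjusted p = 1.0).

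At least 1 Apoc1 UMI was found in 3.01% and 5.19% of state 5 cells of ADAM 1 and ADAM 2 (exact 95% intervals 1.82 to 4.66 and 3.73 to 7.0), against 8.25% and 8.45% of AD 1 and AD 2 (6.17 to 10.8 and 6.52 to 10.7). T and NK cells showed 0.147% and 0.271% in ADAM and 0.0979% and 0.242% in AD. The median depth of state 5 cells was 6726 and 6857 UMIs in ADAM and 6200.5 and 7883 in AD. After thinning to 1000 UMIs only 6 and 8 cells of ADAM and 9 and 8 of AD kept an Apoc1 UMI, 0.952% and 1.04% against 1.55% and 1.11%, and a difference was not detectable at this depth.

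State 5 cells with an Apoc1 UMI also held more Apoe. Their Apoe level was 44200 and 45180 CPM in ADAM and 47690 and 54330 CPM in AD, against 28060 and 37940 CPM in ADAM and 35730 and 40180 CPM in AD for state 5 cells without one. Their median depth was higher too, at 9890 and 9243 UMIs in ADAM and 7698 and 10338 in AD, against 6668.5 and 6702 in ADAM and 6111 and 7757 in AD. The part of depth in the Apoe difference was not tested. Higher Apoe in cells with an Apoc1 UMI was not particular to state 5. It was also seen in states 0 and 4, macrophages and monocytes, in each library with such cells. In state 0 these cells had 14920 and 14990 CPM in ADAM and 30410 and 22770 CPM in AD, on 2 to 20 cells per library. State 0 cells without one had 3462 and 8895 CPM in ADAM and 3179 and 3687 CPM in AD.

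Across the other sets where Apoc1 passed the filter, its log2 folds were −0.48 (SE 0.58) in all microglia, 0.25 (SE 1.03) in state 4, −0.0070 (SE 0.58) in monocytes and −1.70 (SE 1.71) in macrophages. The direction in macrophages flipped without AD 2, the library whose 1 cell held 87 UMIs, where AD is left with a count of 0. That in all microglia flipped without ADAM 1 (0.096), that in state 4 without ADAM 2 (−0.97) and without AD 2 (−0.65), and that in monocytes without ADAM 1 (0.49) and without AD 2 (0.18). Apoc1 passed the filter in 6 of the 10 sets, and edgeR, DESeq2 and limma-voom each called it in 0, with 1 (state 5) at an unadjusted p under 0.05 in each. In proliferating cells, where it did not pass, 15 and 12 UMIs were found in ADAM and 0 in each AD library, with 13 of the 15 and 7 of the 12 from 1 cell each.

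**Figure D5:**
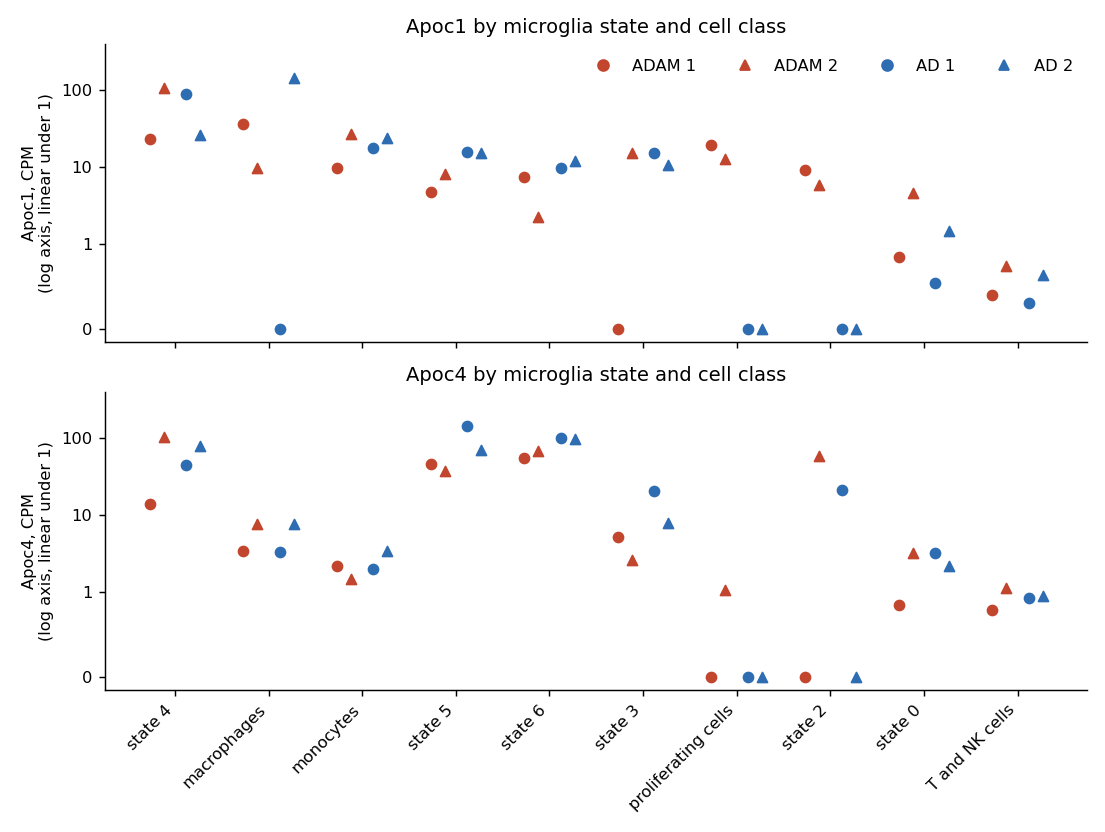
Apoc1 (top) and Apoc4 (bottom) in CPM, on an axis that is linear under 1 and logarithmic above, 1 point per library with ADAM left of AD. In state 5, Apoc1 stands at 4.71 and 8.06 in ADAM and 15.4 and 15.2 in AD, and Apoc4 at 46.2 and 37.2 in ADAM and 145.4 and 69.5 in AD.

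Apoc2 was all but absent from the counts. It had 6 UMIs in 6 cells, of which 3 were in ADAM 1 and 3 in ADAM 2, and AD 1 and AD 2 had 0. By set, 4 were in monocytes, 1 in state 2 and 1 in state 4, and over all microglia the count was 2 in ADAM 1 and 0 in the other libraries. A count of 0 allows up to 3 UMIs, or 0.231 CPM in the microglia of ADAM 2, 0.350 in AD 1 and 0.138 in AD 2. Apoc2 passed the filter in 0 of the 10 sets, so it was not tested and no fold is given. A read-through gene of the annotation, Gm44805, shares 646 of the 813 exon bases of Apoc2 on the same strand and 295 of the last 300, where 3′ reads fall. Reads that fit both genes can be left uncounted, no source used here names the annotation the authors counted on, and Gm44805 has no row in the table, so the Apoc2 count is uncertain and this was not tested.

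The neighbour Apoc4, a little-studied apolipoprotein of the same cluster, was easier to see. It had 2065 UMIs, 69.2% of them in state 5, a larger share than the 57.5% for Apoe and the 30.3% for Apoc1. Its level was not particular to state 5, with mean CPM of 79.81 in state 6, 74.59 in state 5 and 60.35 in state 4. None of the last 300 exon bases of Apoc4 is shared with Gm44805. In state 5 it stood at 46.2 and 37.2 CPM in ADAM against 145.4 and 69.5 CPM in AD, and 12.7% and 14.1% of cells held it in ADAM against 28.1% and 22.8% in AD. Both ADAM libraries were lower. The log2 fold was −1.36 (SE 0.51, edgeR adjusted p = 0.963). It was −0.74 without AD 1 and −1.82 without AD 2. In T and NK cells Apoc4 was at 0.788 and 1.12 CPM in ADAM and 0.927 and 0.951 CPM in AD, and in macrophages at 3.43 and 7.64 CPM in ADAM and 3.27 and 7.61 CPM in AD, so that macrophages, rich in Apoe, held little of it.

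Genes around the cluster and around Axl gave few calls, as did all genes. The ApoE locus list holds 11 neighbours, 10 of them in the table. Of the 53 tests of these over the 10 sets, edgeR called 0 in either direction, where 0.0154% to 0.313% of all genes were called per set. So few tests cannot show whether the locus differs from that share. In state 5 the median log2 fold of these neighbours was −0.14 against 0.00099 for all genes. Clptm1, Tomm40 and Relb had log2 folds of −0.038, −0.19 and 0.36 in state 5. Among the genes within 20 Mb of Axl tested in state 5, 1 of 294 was called (0.340%), Axl itself, beside 0.148% of the other genes. In state 0 it was 2 of 328 (0.610%), Axl and Gm37494, beside 0.0850% of the other genes. Axl alone was called in state 3 (1 of 86, beside 0.290% of the other genes), state 4 (1 of 103, beside 0.104%) and macrophages (1 of 163, beside 0%). In T and NK cells it was 1 of 267, Tyrobp, beside 0.237%. In proliferating cells it was 1 of 175, Cd79a, a B cell marker, beside 0.072%. In all microglia it was 0 of 357, in state 2 0 of 73 and in monocytes 0 of 169, beside 0.0432%, 0.065% and 0.159%.

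Receptors of ApoE and their partners were the next list, 16 genes with 15 in the table. The share of all genes called ran from 0.0154% to 0.313% over the 10 sets. Of 89 tests 2 were called higher in ADAM and 0 lower, Tyrobp and Trem2 in T and NK cells, where that share was 0.241%. Microglia markers were higher in ADAM in these cells as well, as given above. Trem2 in state 5 stood at 6803 and 6848 CPM in ADAM against 8233 and 7564 CPM in AD, and the log2 fold was −0.22 (SE 0.12, edgeR adjusted p = 0.963). Lrp1, an endocytic receptor for ApoE, stood in state 5 at 224.6 and 252.2 CPM in ADAM and 245 and 242.6 CPM in AD. Lrpap1, the chaperone of these receptors, was at 541.2 and 537.7 CPM in state 5 of ADAM and at 825.2 and 588.7 CPM in AD. Its fold there was not called (−0.40, SE 0.15, edgeR adjusted p = 0.747), but the fold in state 5 minus that in state 0 was (−0.52, SE 0.12, edgeR adjusted p = 0.0050). Without AD 1 this call was lost (−0.35, adjusted p = 0.639; range over the alternatives 0.0030 to 0.639). The median log2 fold in state 5 was −0.15 over the 12 receptor genes tested, −0.081 over 12 regulators, transporters and lipases and −0.16 over 8 lipid uptake genes. From the list of other apolipoproteins only Apoo, Apool and Saa3 were tested there, and their median was the 0.16 of Apool. All genes had a median of 0.00099, and 0 of these listed genes were called, beside 0.153% of all genes. For the fold in state 5 minus that in state 0, 11 of 12 receptor genes and 8 of 8 lipid uptake genes were negative. So were 9 of 12 regulators, transporters and lipases, 5 of 8 locus neighbours and 1 of 4 other apolipoproteins.

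Regulators, lipid transporters and lipases were 17 genes with 15 in the table. Beside 0.0154% to 0.313% of all genes called per set, of 91 tests here 1 was called lower in ADAM and 0 higher. This was Lpl, lipoprotein lipase, the enzyme that ApoC2 serves. In state 3 it fell to 87.3 and 171.3 CPM in ADAM, against 306 and 483.4 CPM in AD, and the log2 fold was −1.63 (SE 0.30, edgeR adjusted p = 0.018). Leaving out any 1 library gave folds of −2.22 to −1.21, and over all alternatives the highest adjusted p was 0.123. In state 5 it was at 658.6 and 900.8 CPM in ADAM and 1109 and 1126 CPM in AD, both ADAM libraries lower, with a fold of −0.53 (SE 0.14, edgeR adjusted p = 0.297). Abca1, the transporter that loads lipid on ApoE, had 62.7 and 62.6 CPM in ADAM and 63.7 and 77.3 CPM in AD in state 5 (log2 fold −0.18). Mylip, which marks LDL receptors for breakdown, had a fold of −0.021 there and Lpcat3, a phospholipid enzyme driven by liver X receptors, −0.051.

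Of 9 genes of lipid uptake and lysosomal cholesterol handling, all in the table, 0 of 68 tests were called in either direction. With 0.0154% to 0.313% of all genes called per set, 0 calls in so few tests cannot set this list apart. Fabp5, Npc2, Soat1 and Lipa, which bind fatty acids, export lysosomal cholesterol, store it as ester and break esters down, had log2 folds in state 5 of −0.17, −0.11, −0.096 and −0.34. Msr1, a scavenger receptor, had 3.39 and 8.26 CPM in state 0 of ADAM against 2.68 and 2.33 in AD, and 4.06 and 7.34 CPM in state 5 of ADAM against 8.09 and 12.1 in AD. The fold in state 5 minus that in state 0 was −2.27 (SE 0.39, edgeR adjusted p = 1.3e-05). It was not called without ADAM 2 (−1.96, adjusted p = 0.0513) or without AD 2 (−1.74, adjusted p = 0.214), over a range of 5.2e-06 to 0.214.

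Other apolipoproteins were 19 genes with 11 in the table. Among all genes, 0.241% were called in T and NK cells and 0.0842% in proliferating cells. Of 23 tests of this list over the sets, 2 were called higher and 0 lower. Both were of Saa3, an acute-phase apolipoprotein of mouse macrophages. In T and NK cells it had 18 and 53 UMIs in ADAM against 2 and 4 in AD (edgeR adjusted p = 0.049, log2 fold 3.80, SE 0.64), and in proliferating cells 639 and 242 UMIs in ADAM against 0 and 1 in AD (edgeR adjusted p = 0.035). The call in proliferating cells was lost with limma-voom (adjusted p = 0.353; range over the alternatives 1.2e-66 to 0.353). The call in T and NK cells was lost without ADAM 2 (2.87, adjusted p = 0.328), AD 1 (3.37, 0.469) or AD 2 (4.37, 0.201), over a range of adjusted p from 1.5e-11 to 0.469. T and NK cells also held 19.3 and 1731 CPM of neutrophil markers in ADAM against 11.4 and 36.8 CPM in AD, and the values for proliferating cells are given above. Monocytes held Saa3 at 336.4 and 6041 CPM in ADAM against 5.94 and 1.69 CPM in AD. That fold was not called (9.85, SE 2.90, edgeR adjusted p = 0.609). The part of neutrophil or monocyte RNA in the Saa3 values of the other sets was not tested. In state 5 Saa3 was at 4.28 and 11.1 CPM in ADAM and 0 and 0.324 CPM in AD (edgeR adjusted p = 0.060). Apod, a lipocalin, had 316 of its UMIs in state 2 of ADAM 2 and 0 to 2 in state 2 of each other library. Macrophage markers in state 2 stood at 100.8 and 4055 CPM in ADAM and 31.2 and 73.7 CPM in AD, Apod in macrophages at 53.7 and 30.5 CPM in ADAM and 29.4 and 132.4 CPM in AD, and the part of macrophage RNA in the Apod value was not tested. Its fold in state 2 minus that in state 0 was called (4.86, SE 1.14, edgeR adjusted p = 0.031), but not without AD 1 (adjusted p = 0.271) or AD 2 (0.794), and Apod did not pass the filter without ADAM 2. Clu, Apool and Apoo had log2 folds of −0.23, 0.13 and 0.0030 in all microglia.

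Across the 9 sets with enough cells, the genes whose mean log2(CPM + 1) followed Apoe most closely were Nagk (Pearson r = 0.961), Tmem176a (0.949), Cyb5r1 (0.946), Cpq (0.945) and Il4i1 (0.945), among 4850 genes that reached 50 CPM in some set. The sets share libraries and depth, and the values are a description. For example Il4i1 stood at 97.4 CPM in state 5, 80.8 in state 4, 14.6 in state 0 and 1.21 in T and NK cells. Apoc1 was followed by Atp6v0e (0.963), Anxa5 (0.937), Cstb (0.889), Litaf (0.883) and Ftl1 (0.876), of which Cstb stood at 894.2 CPM in state 4, 304.6 in monocytes and 254.7 in state 5. Apoe and Apoc1 had a correlation of 0.548 with each other over these 9 sets, so that the 2 neighbours did not follow the same order. The Apoc1 profile rests in part on single cells. Without the cell of each library with most Apoc1, its mean was 6.36 in place of 47.7 CPM in macrophages and 25.9 in place of 61.5 CPM in state 4. Its correlations were not computed without these cells. The 6 UMIs of Apoc2 give no correlation that can be read.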

How the data were processed

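Single-cell 3′ RNA libraries of sorted CD45+ cortical cells were made with 10x Genomics chemistry, per the labels' protocols. The authors deposited UMI counts without normalization, and their cell table gives library, class, microglia state, doublet marks and the percent of mitochondrial UMIs, which, like the deposited doublet score, was not used here. Per the submitters' processing notes, the tools were Seurat 3.2.1.9002 and Cell Ranger 3.1.0, and the build was mm10. How reads that fit several genes were counted, and on which annotation, no source used here says. The lowest UMI count of a cell is 500, and filters on cells are likewise not given.

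Counts were summed per library over each class and state. The 823 cells that the authors marked as doublets, and 216 marked as microglia and T cell doublets, stayed out of the tested sets, and no doublet caller was run. Libraries were the replicates, and p-values measure the spread between pools. The 10 sets in which every library had 20 cells or more were tested with edgeR 4.0.16 in R 4.3.3 (quasi-likelihood, robust, TMM, expression filter with a minimum count of 10, Benjamini-Hochberg adjustment over all genes at 0.05), with genotype as the only term. Folds of states against state 0 were tested with library as a term. SEs are the fold over the root of F. CPM are without TMM. Exact intervals are at 95% and a count of 0 allows 3 UMIs; both cover counting error only. Cells were thinned without replacement (seed 1). DESeq2 1.42.0, limma 3.58.1 (voom), RLE scaling, library totals, no filter, a replicate block, leaving out libraries and removal of haemoglobin and choroid plexus genes were the alternatives. For all microglia, adding the microglia and T cell doublets and leaving out state 2 were further alternatives. The fit was tested on simulated data with 200 genes changed. Python 3.11.15, numpy 2.4.6, scipy 1.17.1, pandas 2.3.3 and matplotlib 3.10.9 were used. Positions are those of GENCODE vM21, in which 16580 of 16798 gene names matched exactly once.

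Members and gene lists were chosen with earlier results of these data known. The text names the 3 members and Apoc4 in the sets, from each list any called gene and otherwise up to 4 genes by mean CPM in microglia, and for each member the 5 genes with the highest correlation across sets. Apoc4 was described further, and Il4i1 and Cstb picked as examples, after their values were seen.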

Additional observations from a re-analysis of the deposited data

Results flagged for a closer look

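The genotype effect on Apoe differed between microglia states by the test of the difference itself. The fold in state 4 minus that in state 0 was −1.40 on the log2 scale and the fold in state 5 minus that in state 0 was −1.0, with Apoe over state 0 lower in both ADAM libraries than in both AD libraries in each case. The same test gave −2.38 for Apoc1 in state 5 against state 0. In the comparisons of states 4 and 5 with state 0, more genes were called lower than higher, as given above. The state 5 differences were not called without ADAM 2, and the Apoe difference in state 4 was not called without AD 1 or without AD 2.

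Apoe in T and NK cells was higher in both ADAM libraries, and in states 2 and 4 it was lower in both. The fold in T and NK cells exceeded that in state 2 by 1.41 and that in state 4 by 1.36 on the log2 scale, and these differences were not tested.

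The cells that the authors marked as microglia and T cell doublets entered only an alternative fit of all microglia. These cells held Apoe at 53970 CPM in ADAM 2 on 4 cells, against 22020 CPM in AD 1 on 209 cells and 15190 CPM in AD 2 on 3 cells. ADAM 1 had 0 such cells.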

How the results depend on the processing

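Of 22 tested results for Apoe and Apoc1 with 219 alternative values, 175 kept their direction and their side of the threshold, 23 changed sign, 17 passed the threshold newly and 4 no longer passed it; the cause was not tested. For Apoe in all microglia, a fold near 0, the sign changed with RLE scaling (−0.0019), library totals (−0.057), DESeq2 (−0.0019), limma-voom (−0.065), the replicate block (−0.0595) and the crossed block (−0.0595). Apoc1 in monocytes turned to 0.0023 with RLE and 0.028 with no filter. Newly called were Apoc1 in state 5 with no filter (−1.23), Apoe in T and NK cells with no filter (0.72), DESeq2 (0.73) and the replicate block (0.74), and Apoe in state 2 minus state 0 with RLE (−1.42, edgeR adjusted p = 0.045, over a range of 0.0012 to 1.0).

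Leaving out each library in turn moved the Apoe fold over −0.54 to 0.39 in all microglia, 0.045 to 1.44 in state 0, −1.18 to −0.29 in state 2, −1.12 to 0.49 in state 3, −0.98 to −0.34 in state 4 and −0.46 to −0.036 in state 5. In the other classes it moved over 0.53 to 0.96 in T and NK cells, −0.14 to 1.25 in monocytes, −0.30 to 0.17 in macrophages and 0.19 to 1.12 in proliferating cells. The Apoc1 fold moved over −1.37 to 0.096 in all microglia, −0.45 to 2.33 in state 0, −0.97 to 1.25 in state 4, −1.70 to −0.93 in state 5, −1.15 to 0.49 in monocytes and −3.10 to 6.80 in macrophages. For folds minus that in state 0, Apoe moved over −1.65 to −1.05 in state 2, −1.34 to −0.46 in state 3, −1.84 to −0.99 in state 4 and −1.50 to −0.51 in state 5, and Apoc1 over −2.73 to 0.26 in state 4 and −3.61 to −1.22 in state 5. Apoc4 ranged over −1.49 to 0.44 in state 0 and −2.34 to 0.52 in state 4 (0.11 without AD 2), and minus state 0 over −0.90 to 0.85 in state 4 and −1.71 to 0.53 in state 5. A group left with 1 library is assumed to vary like the other, so calls gained in these fits are not read as support.

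Counts of called genes ran over all alternatives from 0 to 139 in all microglia (5 as reported), 6 to 174 in state 0 (11), 0 to 48 in state 2 (2), 4 to 21 in state 3 (10), 2 to 33 in state 4 (5), 12 to 141 in state 5 (16), 4 to 107 in T and NK cells (23), 0 to 276 in monocytes (10), 0 to 130 in macrophages (1) and 0 to 778 in proliferating cells (6). For folds minus that in state 0 they ran from 0 to 25 in state 2 (7), 5 to 24 in state 3 (15), 1 to 51 in state 4 (22) and 51 to 173 in state 5 (113).

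Deviations of same-numbered libraries correlated at −0.21 to 0.24 over the sets. With so few libraries a group, these values cannot show whether the numbers pair the libraries. With the replicate block, calls were 0 in all microglia, 35 in state 0, 16 in state 5 and 90 in T and NK cells. Numbers crossed, an alternative chosen after seeing the data as was leaving out the top Apoc1 cells, gave 8 calls in all microglia, 0 in state 2 and 9 in macrophages. Thinning widened the Apoe share difference in state 0 (ADAM minus AD) to 16.8 percentage points, against 8.5 unthinned, and narrowed that of Apoc1 in state 5 to −0.33, against −4.25. Of the 5 genes most like each member, 4 for Apoe and 2 for Apoc1 were shared at a pseudocount of 10. Depth limits Apoc1 to 22 to 94 UMIs per library in state 5, and Apoc2, with 6 UMIs in all, could not be tested.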
